A study of Mus musculus with 6 samples.

Results

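The genes described here are 34 genes of interstitial collagen and its processing, followed through mouse airway smooth muscle cells (ASMC) grown with or without airway epithelial cells. They were chosen by gene symbol, with earlier results of these data known. Of the 34, 17 encode collagen chains of the interstitial matrix and 17 encode hydroxylases, chaperones, propeptidases and cross-linking enzymes. All 34 of 34 symbols were found among the 17023 genes of the deposited table. The cells were primary wild-type ASMC from mouse lung, kept for 5 days in transwell plates, in which a porous membrane separates a pair of cell layers but lets dissolved molecules pass. The co-culture group (3 libraries) shared the plate with mouse airway epithelial cells, and the control group (3 libraries) did not; genotype, tissue and culture time were the same in both. The labels give no strain, age or sex of the mice and no source of the epithelial cells, and the stated aim of the series was to look for causes of smooth muscle proliferation.

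Fibrillar collagens are made as procollagen chains, of which 3 wind into a triple helix. In the endoplasmic reticulum, prolyl and lysyl hydroxylases modify the chains while chaperones such as HSP47 hold the helix. After secretion, propeptidases trim the ends, fibrils assemble, and lysyl oxidases start the cross-links. Collagens V and XI sit within fibrils of more abundant collagens and limit their width. Fibril-associated collagens coat the surface of fibrils, and collagen VI forms beaded filaments around cells. In the airway wall this matrix surrounds the smooth muscle bundles, and it is thickened in asthma.

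Total estimated counts per library were 17496056 to 18496623. Control columns are numbered 4 to 6 in the deposited tables and are named by that number here. Control library 4 stood apart from the other libraries: genes shorter than 1000 bases took 18.3% of its counts against 9.26% to 11.2% elsewhere, and the count-weighted mean gene length was 3184 bases against 3588 to 3788. Control library 4 was the lowest control for 27 of the 34 genes. The share over all genes is not given here, so that count is not read as a trait of the 34. The part of gene length in these values was not tested beyond a correction for it, whose counts are given with the first result. Of 10 smooth muscle markers, 3 fell (Acta2, Cnn1 and Tagln) and 1 rose (Myocd, log2 fold change 2.75, edgeR adjusted p = 0.0020). Lmod1 and Synpo2 were higher and Myh11, Smtn and Actg2 lower without passing, and Des was not tested. Cnn1 was low, at 0.430 ± 0.116 CPM in co-culture and 0.904 ± 0.153 in controls. Acta2 (smooth muscle actin) averaged 60.3 ± 16.6 CPM in co-culture and 136 ± 14.3 in controls, while Des, Myocd and Actg2 stayed below 1 CPM in every library. The 10 markers summed to 222 to 252 CPM in co-culture and 341 to 342 in controls. Smtn was a large part of that sum, at 116 ± 6.27 CPM in co-culture and 130 ± 17.6 in controls. Myh11 was low, at 0.892 ± 0.0677 and 1.25 ± 0.492 CPM. The fibroblast list of 10 genes was higher in sum (1205 to 1303 against 1047 to 1104 CPM), so markers of both cell types were present in the cultures. Most of the fibroblast sum was Pdgfra (847 ± 57.8 against 732 ± 91.1 CPM), which did not pass (edgeR adjusted p = 0.249). In that list 3 genes rose and 2 fell. Airway epithelial markers summed to 3.54 to 4.08 CPM in co-culture and 1.05 to 1.76 in controls, over 9 genes, 8 of which stayed below 1 CPM throughout. The other, Trp63, made up most of that sum and rose from 0.825 ± 0.186 to 3.2 ± 0.107 CPM (edgeR adjusted p = 0.0012). A list of 8 leukocyte markers summed to 48.6 to 54.8 CPM in co-culture and 65.7 to 120 in controls, the highest in control library 4. Most of the leukocyte sum was Lyz2 (39.4 ± 3.17 against 69.7 ± 29.2 CPM), which did not pass (edgeR adjusted p = 0.0781). Of the 7 leukocyte markers tested, Csf1r fell (-1.39, edgeR adjusted p = 0.00562) and 6 did not pass. The part of such cells in the values of the collagen and degradation genes was not tested.

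Changes are log2 fold changes of co-culture over control with their standard error (SE), and levels are counts per 1000000 reads after scaling of library sizes (CPM). The words rose and fell are kept for genes with an adjusted p under 0.05 in edgeR's quasi-likelihood test, adjusted over all genes. Of the 34 genes, 11 fell, 3 rose and 20 did not pass. Over all 12936 genes tested 10.3% fell and 10.3% rose, together 20.6%, against 32.4% and 8.82% of these 34. The genes that fell were the fibrillar collagen chains Col5a1, Col5a3, Col11a1 and Col27a1, the collagens Col14a1 and Col8a1, the hydroxylases P3h1 and Plod1, the chaperone Serpinh1, and the cross-linking enzymes Loxl2 and Loxl3. Col16a1, P4ha2 and P4ha3 rose. The median change of the 34 genes was -0.26, and that of all genes tested was -0.04. Without control library 4, 20 of the 34 genes fell and 7 rose, where 19.9% and 18.7% of all genes did, and all 14 of the earlier calls were among them. With a correction for gene length, chosen after seeing the data, 15 fell and 7 rose, where 14.1% and 14% of all genes did. Without scaling factors between libraries, 6 fell and 3 rose, where 676 and 1444 of all genes did. With the factors, 1330 of all genes fell and 1333 rose. Leaving the factors out shifted the median of all genes upward by 0.11 on the log2 scale, and 68.1% of all calls were rises in place of 50.1%.

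**Figure D1:**
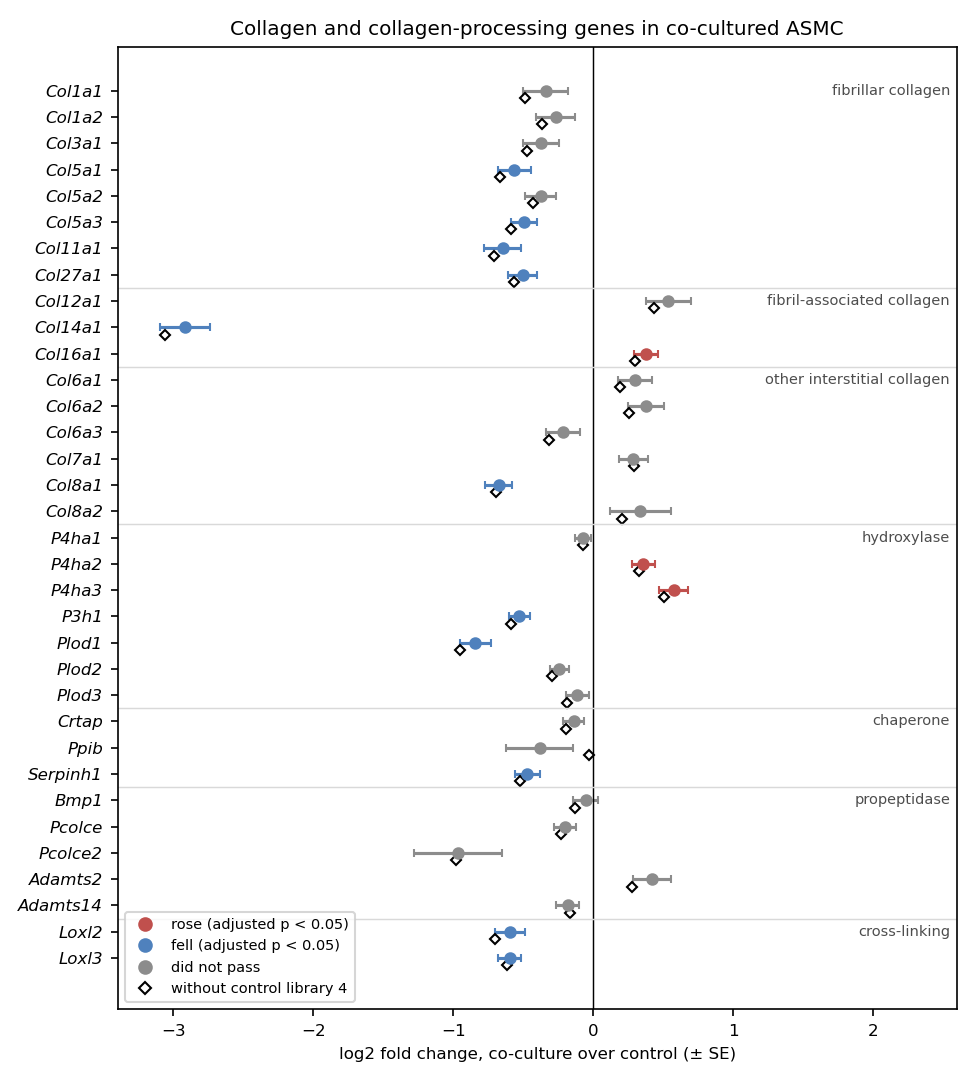
Log2 fold change of co-culture over control (x axis; filled points, with bars for SE) for each of the 34 genes (y axis, grouped by role), with the value without control library 4 as open diamonds. All 8 fibrillar collagen genes lie left of 0, whereas Col12a1, Col16a1, Col6a1 and Col6a2 lie right of it, and Col14a1 lies far to the left at -2.92 (log2).

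The isoform-defining exons of the hydroxylases are shown first, because P4ha1, P4ha2 and Plod2 each make forms of the enzyme that differ by a single coding exon and the deposited transcript table separates them. P4ha1 and P4ha2 encode catalytic alpha subunits of prolyl 4-hydroxylase, the enzyme whose product, hydroxyproline, keeps the triple helix stable at body temperature. Each gene carries a pair of alternative exons, of which a transcript uses either. The sequences are from GENCODE M21 (GRCm38), plus strand, written 5′ to 3′, and capitals in the P4ha1 exons mark the positions that differ between both. Those exons are each 71 bases long and are identical at 42 positions (59.2%).
P4ha1 upstream exon, chr10:59354340-59354410: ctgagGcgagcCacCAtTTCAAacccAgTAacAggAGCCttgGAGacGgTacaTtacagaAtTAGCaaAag
P4ha1 downstream exon, chr10:59355350-59355420: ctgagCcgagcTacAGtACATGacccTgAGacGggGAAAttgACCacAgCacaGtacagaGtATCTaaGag
P4ha2 upstream exon, chr11:54126238-54126297: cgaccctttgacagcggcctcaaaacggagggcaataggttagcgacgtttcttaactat
P4ha2 downstream exon, chr11:54126346-54126411: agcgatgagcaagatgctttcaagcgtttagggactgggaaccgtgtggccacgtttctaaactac
Plod2 extra exon, chr9:92601985-92602047: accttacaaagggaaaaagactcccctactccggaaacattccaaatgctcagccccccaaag

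Collagen I and III chains, the bulk of the fibrils, were lower in co-culture but did not pass. Col1a1, which encodes the alpha 1 chain of collagen I, was at 3655, 3249 and 3605 CPM in co-culture libraries 1 to 3 and at 3498, 4806 and 4996 CPM in control libraries 4 to 6. Control library 4 lay among the co-culture libraries, and the groups overlapped. The change was -0.34 ± 0.16 (edgeR adjusted p = 0.188), and without control library 4 it was -0.48 (edgeR adjusted p = 2.00e-04, the lowest of a range up to 0.442 among the alternatives).

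Col1a2, the alpha 2 chain of collagen I, was at 6233, 5935 and 6225 CPM in co-culture and 6361, 7603 and 8201 CPM in controls. The groups did not overlap, but control library 4 was close to the highest co-culture library. Its change was -0.27 ± 0.14 (edgeR adjusted p = 0.215). Col3a1, the chain of collagen III, was at 2885, 2560.0 and 2737 CPM in co-culture and 3028, 3675 and 3881 CPM in controls, again with control library 4 the nearest to co-culture (-0.37 ± 0.13, edgeR adjusted p = 0.0902). Without control library 4 both fell, by 0.37 and 0.47 on the log2 scale (edgeR adjusted p = 0.00135 and 2.18e-04, with ranges up to 0.516 and 0.287 among the alternatives). With the length correction Col3a1 passed as well (edgeR adjusted p = 0.0218), and Col1a1 and Col1a2 did not (0.0671 and 0.0706). Col1a1, Col1a2 and Col3a1 together took 57.9% to 58.5% of the counts of all 17 collagen genes in co-culture and 62.2% to 63.4% in controls. The 17 collagen genes took 2.08% to 2.27% of all counts in co-culture, and 1.83%, 2.56% and 2.69% in control libraries 4, 5 and 6.

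Of the chains of collagens V, XI and XXVII, 4 passed and Col5a2 did not. Whether their changes differ from those of the collagen I and III chains was tested only for the Col5a1/Col1a1 ratio, given further down. Col5a1, the alpha 1 chain of collagen V (gene ID 12831, chromosome 2, 27886381 to 28039510), was at 841, 832 and 877 CPM in co-culture and 1066, 1349.8 and 1351 CPM in controls. All co-culture libraries lay below all controls, and Col5a1 fell by 0.56 ± 0.12 (edgeR adjusted p = 0.0174). Col5a3, a rarer collagen V chain, was at 126, 127 and 129 CPM in co-culture and 156, 198 and 185 CPM in controls. Its co-culture values were nearly equal, with no overlap, and it fell by 0.49 ± 0.094 (edgeR adjusted p = 0.0134). Col5a2, the partner chain in the common form of collagen V, averaged 1492 ± 121 CPM in co-culture and 1935 ± 161 in controls and missed the threshold (-0.38 ± 0.11, edgeR adjusted p = 0.0554). Col5a2 passed with DESeq2 (adjusted p = 0.0315), with the length correction (0.0136) and without control library 4 (edgeR adjusted p = 8.21e-04), and the alternatives ranged up to 0.227.

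Col11a1, the alpha 1 chain of collagen XI, best known from cartilage (gene ID 12814, chromosome 3, 114030479 to 114220756), was at 285, 218 and 258 CPM in co-culture and 361, 379 and 452 CPM in controls. The groups did not overlap, and Col11a1 fell by 0.65 ± 0.13 (edgeR adjusted p = 0.0163). Col27a1, a fibrillar collagen of developing cartilage, was at 11.8, 10.7 and 11.7 CPM in co-culture and 14.8, 17.7 and 16.02 CPM in controls. It too was lower in every co-culture library and fell by 0.51 ± 0.10 (edgeR adjusted p = 0.0162). A list of 9 chondrocyte markers summed to 20.5 to 23.4 CPM in co-culture and 40.9 to 46.5 CPM in controls. Of these, Col2a1, Sox9 and Hapln1 fell, and Acan, Cnmd, Col9a1, Comp and Matn1 stayed below 1 CPM in every library. The part of such cells in the Col11a1 and Col27a1 values was not tested. In bulk RNA, fewer cells of a type and less RNA per cell cannot be told apart. The calls of Col5a1 and Col27a1 were lost without any library other than control library 4, those of Col5a3 and Col11a1 without 4 and 3 of the libraries, and the edgeR or DESeq2 adjusted p of the 4 genes ran from 1.65e-06 to 0.0894 among the alternatives.

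Of the 8 fibrillar chains, 4 fell and 0 rose, where 10.3% of all genes fell and 10.3% rose. At an unadjusted p under 0.05, 0 were higher and 6 lower, and DESeq2 called 0 and 5. All 8 had negative changes, as had 7239 of the 12936 genes tested. Without control library 4 all 8 fell, where 19.9% of all genes did. Col3a1 and Col5a2 are neighbours on chromosome 1, with 24625 bases between them.

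**Figure D2:**
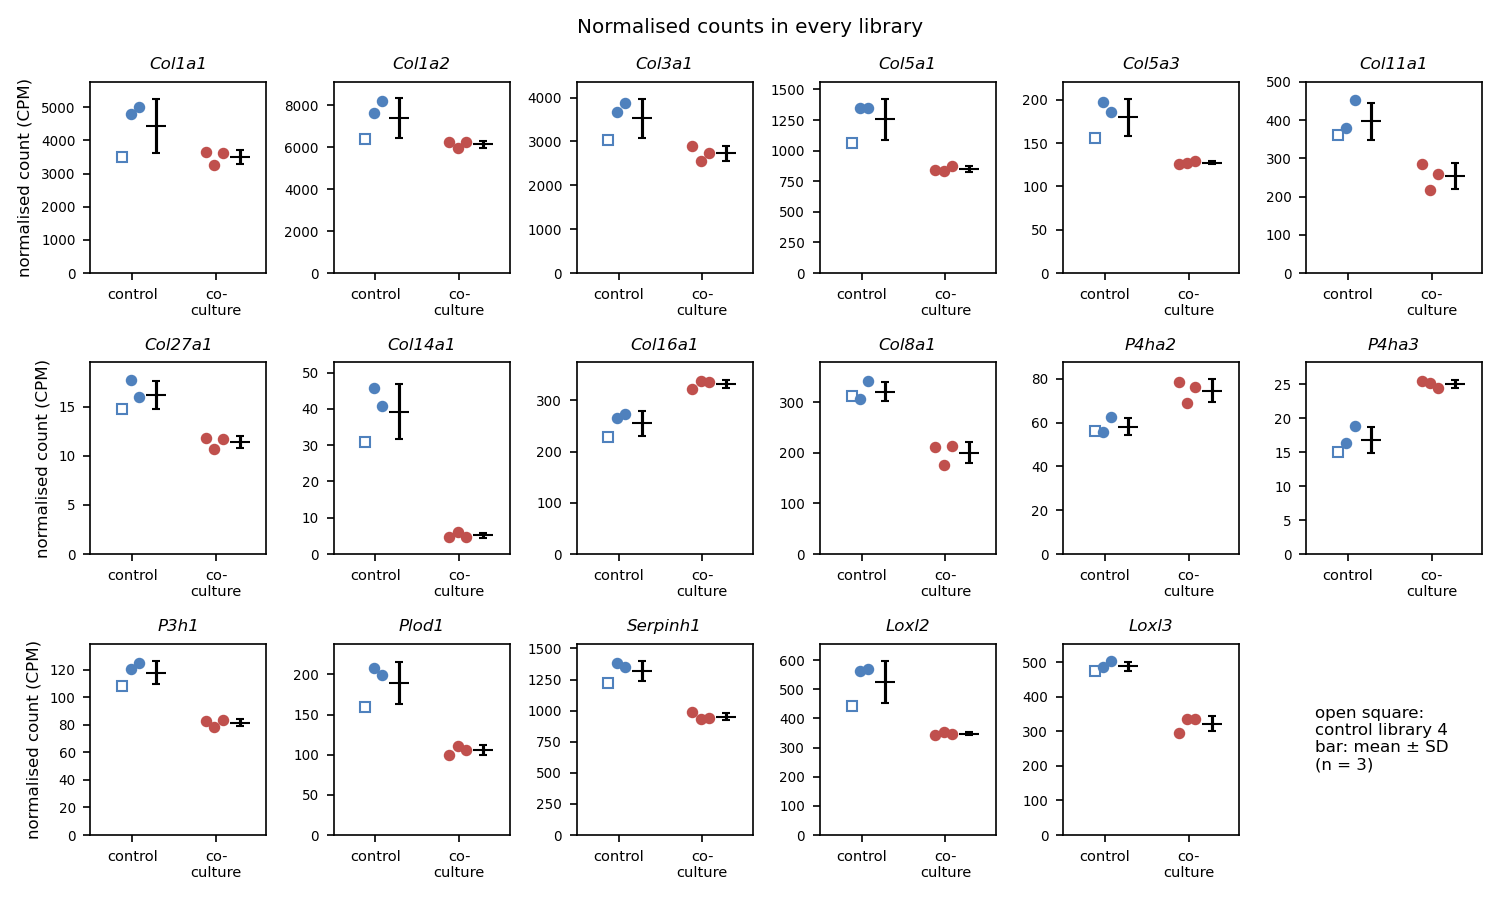
Normalised counts (CPM, y axis from 0) in the 3 control and 3 co-culture libraries for Col1a1, Col1a2, Col3a1 and the 14 genes that passed; horizontal bars and whiskers are mean ± SD. Control library 4 (open square) lies at the co-culture level for Col1a1, and the points of the groups do not overlap for any of the 14 called genes.

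Fibril-associated collagens, which coat fibrils, went in opposite directions. Col14a1, collagen XIV (gene ID 12818, chromosome 15, 55307644 to 55520803), was at 4.74, 6.01 and 4.81 CPM in co-culture and 31.0, 45.9 and 40.8 CPM in controls. Every control was far above every co-culture library, and Col14a1 fell by 2.92 ± 0.18 (edgeR adjusted p = 2.14e-04). It was the change of greatest size among the 34 genes, and it was called in every alternative. Both Col14a1 transcripts tested fell, with changes of -3.21 ± 0.26 and -2.26 ± 0.33 (edgeR on transcripts, adjusted p = 0.00742 and 0.0395), but no transcript of the 34 genes was called without co-culture library 1, co-culture library 3 or control library 5. Of the fibroblast list, Dpt, Npnt and Cd34 rose, Scara5 and Tcf21 fell, and Pdgfra, Mfap4 and Lum did not pass. Clec3b and Pi16 were too low to be tested. Clec3b averaged 0.233 ± 0.0375 CPM in co-culture and 0.607 ± 0.0595 in controls, and Pi16 0.318 ± 0.243 and 0.463 ± 0.189. The part of fibroblasts in the Col14a1 values was not tested.

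Col16a1, collagen XVI, a minor component of fibrils and microfibrils (gene ID 107581, chromosome 4, 130047817 to 130099277), was at 322, 338 and 336 CPM in co-culture and 228, 267 and 273 CPM in controls. The groups did not overlap, and Col16a1 rose by 0.38 ± 0.087 (edgeR adjusted p = 0.0257), a call lost without any co-culture library or control library 5 (7.02e-04 to 0.101 among the alternatives). Col12a1, collagen XII, which bridges fibrils in tissues under tension, averaged 1359 ± 206 CPM in co-culture and 937 ± 148 in controls. The groups did not overlap, and Col12a1 missed the threshold (0.54 ± 0.16, edgeR adjusted p = 0.0589). It passed with DESeq2 (adjusted p = 0.0173), with the length correction (0.0205) and without control library 4 (edgeR adjusted p = 0.00927), and the alternatives ranged up to 0.187.

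Among the remaining collagens only Col8a1 passed. Col8a1, a short-chain collagen that vascular smooth muscle is known to make (gene ID 12837, chromosome 16, 57624256 to 57754737), was at 212, 177 and 213 CPM in co-culture and 313, 307 and 343 CPM in controls. The groups were well apart, and it fell by 0.68 ± 0.096 (edgeR adjusted p = 0.00474), a call that held when any library was left out. Its partner chain Col8a2 was low, at 7.66 ± 1.82 CPM in co-culture and 6.05 ± 1.17 in controls, with overlapping groups.

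Collagen VI is assembled from chains of 3 genes, none of which passed. Col6a1 averaged 2112 ± 51.2 CPM in co-culture and 1716 ± 233 in controls (0.30 ± 0.12, edgeR adjusted p = 0.136). Col6a2, 85162 bases away on chromosome 10, averaged 1305 ± 28.6 CPM in co-culture and 1003 ± 155 in controls (0.38 ± 0.13, edgeR adjusted p = 0.0822). Col6a3 averaged 785 ± 67.9 CPM in co-culture and 913 ± 111 in controls (-0.22 ± 0.12, edgeR adjusted p = 0.250). Col6a1 and Col6a2 were higher in every co-culture library than in any control, while the Col6a3 groups overlapped. With the length correction and without control library 4 all 3 were called, in the latter Col6a1 and Col6a2 higher by 0.19 and 0.26 and Col6a3 lower by 0.32 (edgeR adjusted p = 0.0216, 0.00373 and 0.00356, with ranges up to 0.320, 0.218 and 0.632 among the alternatives). Col7a1, the anchoring fibril collagen, averaged 13.8 ± 1.15 CPM in co-culture and 11.3 ± 0.709 in controls and did not pass.

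**Figure D3:**
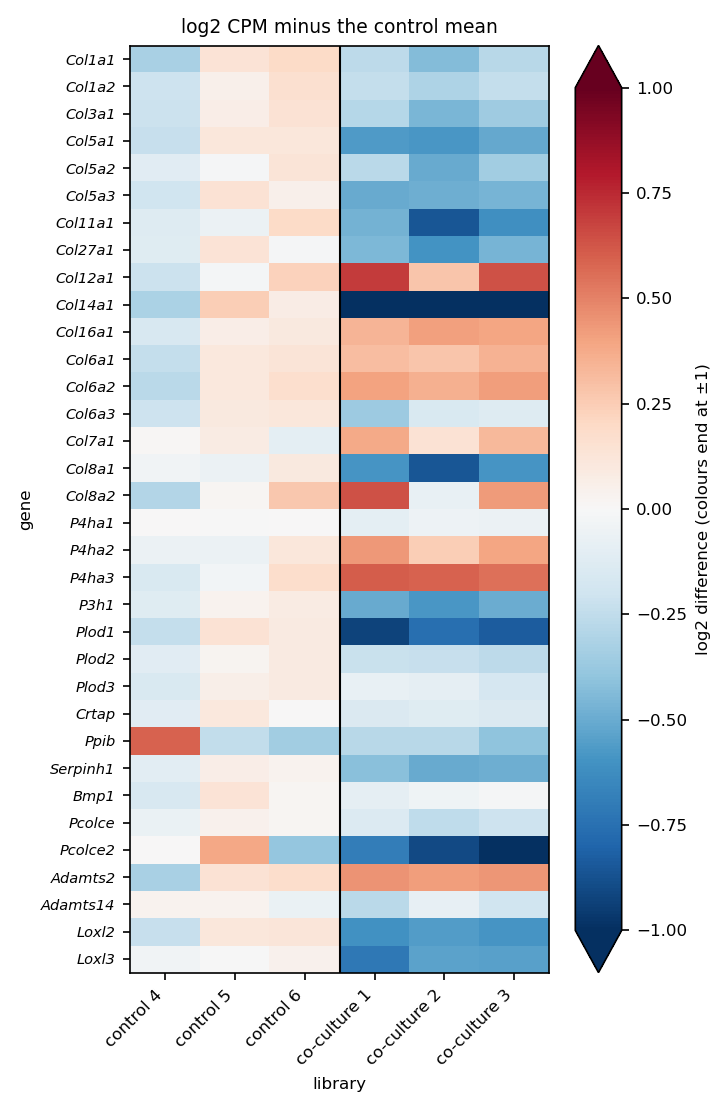
Log2 CPM of each gene (y axis) in each library (x axis) minus the mean of the 3 controls, with red above and blue below it. Col14a1 is past the end of the scale in all 3 co-culture libraries, the column of control library 4 is blue for most collagens, and Ppib is high in that library (499.6 CPM against 281 and 262 in the other controls).

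The hydroxylases did not move alike. P4ha2 (gene ID 18452, chromosome 11, 54100924 to 54131668) was at 78.7, 68.9 and 76.3 CPM in co-culture and 56.0, 55.9 and 62.8 CPM in controls. P4ha3, another prolyl 4-hydroxylase alpha subunit (gene ID 320452, chromosome 7, 100285489 to 100319701), was at 25.5, 25.2 and 24.4 CPM in co-culture and 15.1, 16.4 and 18.9 CPM in controls. Both were higher in every co-culture library and rose, by 0.36 ± 0.081 and 0.57 ± 0.10 (edgeR adjusted p = 0.0246 and 0.0102). Leaving out co-culture library 1, co-culture library 3 or control library 5 ended the P4ha2 call (0.00373 to 0.0998 among the alternatives), and that of P4ha3 was kept without any library. P4ha1, the most abundant alpha subunit per length, was at 186 ± 3.35 CPM in co-culture and 195 ± 0.781 in controls with a change of -0.07 ± 0.056 that missed the threshold (edgeR adjusted p = 0.40).

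Plod1, a lysyl hydroxylase of the helical part of collagen (gene ID 18822, chromosome 4, 147909753 to 147936776), was at 99.0, 111 and 106 CPM in co-culture and 160, 208 and 200 CPM in controls. P3h1, the prolyl 3-hydroxylase that works in a complex with Crtap and cyclophilin B (gene ID 56401, chromosome 4, 119232915 to 119248977), was at 82.9, 78.4 and 83.6 CPM in co-culture and 108, 121 and 124 CPM in controls. No co-culture library reached a control for either gene. Plod1 fell by 0.84 ± 0.11 and P3h1 by 0.53 ± 0.074 (edgeR adjusted p = 0.00355 and 0.00440), and both calls held when any library was left out. Plod2, the lysyl hydroxylase of the telopeptides, averaged 144 ± 2.15 CPM in co-culture and 170 ± 11.7 in controls and just missed the threshold (-0.24 ± 0.070, edgeR adjusted p = 0.0524). Plod2 passed with the length correction (0.0173) and without control library 4 (edgeR adjusted p = 6.30e-04), and the alternatives ranged up to 0.440. Plod3, which also adds sugars to hydroxylysine, averaged 102 ± 3.53 and 111 ± 10.1 CPM with overlapping groups, and passed only with control library 4 left out (edgeR adjusted p = 0.0141, up to 0.941 among the alternatives). Of the 7 hydroxylases, 2 rose, 2 fell and 3 did not pass, where 10.3% of all genes rose and 10.3% fell.

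Serpinh1, which encodes the collagen chaperone HSP47 (gene ID 12406, chromosome 7, 99345375 to 99353239), was at 987, 931 and 938 CPM in co-culture and 1226, 1382 and 1349.8 CPM in controls. Co-culture libraries were the lower ones throughout, and Serpinh1 fell by 0.47 ± 0.088 (edgeR adjusted p = 0.0125). The Serpinh1 call was lost without any library other than control library 4 (1.90e-05 to 0.0871 among the alternatives). Crtap was at 125 ± 1.17 CPM in co-culture and 138 ± 10.6 in controls and passed only with control library 4 left out (edgeR adjusted p = 0.00952, up to 0.833 among the alternatives). Ppib (cyclophilin B, a short gene) was at 266 ± 13.1 CPM in co-culture and 348 ± 132 in controls. Its change of -0.38 ± 0.24 was -0.03 without control library 4.

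Propeptidases did not pass: of 5, 0 rose and 0 fell (1 higher and 2 lower at an unadjusted p under 0.05, and 0 called by DESeq2). Of all genes, 10.3% rose and 10.3% fell. Bmp1, the main C-propeptidase, was at 341 ± 9.03 CPM in co-culture and 354 ± 36.3 in controls, and its enhancer Pcolce at 611 ± 24.6 and 702 ± 27.5 CPM. Pcolce passed only with control library 4 left out (edgeR adjusted p = 0.00576), with a range up to 0.596 among the alternatives. Adamts2, the N-propeptidase of collagens I and III, averaged 267 ± 2.67 CPM in co-culture and 200 ± 36.4 in controls. All co-culture values were above all controls, and Adamts2 was called only without control library 4 (0.27, edgeR adjusted p = 0.001) and with the length correction (0.0156), with a range up to 0.181 among the alternatives. Its relative Adamts14 averaged 22.1 ± 1.46 CPM in co-culture and 25.1 ± 0.948 in controls. Pcolce2 was near the limit of detection, with 7 to 22 reads per library.

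Both cross-linking enzymes fell, where 10.3% of all genes did. Loxl2, a lysyl oxidase family member known for cross-linking collagen (gene ID 94352, chromosome 14, 69608692 to 69695834), was at 343, 354 and 346 CPM in co-culture and 443, 563 and 568 CPM in controls. Loxl3 (gene ID 16950, chromosome 6, 83034205 to 83052566) was at 297, 337 and 335 CPM in co-culture and 476, 486 and 503 CPM in controls. Groups were apart for both genes. Loxl2 fell by 0.59 ± 0.11 and Loxl3 by 0.60 ± 0.079 (edgeR adjusted p = 0.0120 and 0.00361). The Loxl3 call held when any library was left out, and the Loxl2 call was lost without any co-culture library or control library 6 (5.27e-07 to 0.0617 among the alternatives).

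In all, 28 of the 34 genes had groups that did not overlap, 20 lower and 8 higher in co-culture, where 22.5% and 20.4% of all genes tested did so in each direction. The 8 were Col12a1, Col16a1, Col6a1, Col6a2, Col7a1, P4ha2, P4ha3 and Adamts2. The 6 with overlap were Col1a1, Col6a3, Col8a2, Plod3, Ppib and Bmp1.

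Levels of different genes were compared as CPM per kilobase of gene length (FPKM), with each length taken from the ratio of deposited counts to deposited FPKM in co-culture. In controls Col1a2 was highest, at 1494 ± 190 FPKM, followed by Col1a1 at 784 ± 144, Col3a1 at 667 ± 84.2 and Col6a1 at 464 ± 63. Col1a1 and Col3a1 lay within their spread of each other, although Col3a1 was the lower in every single library. In co-culture the order of the next places was different: Col1a1 was at 620 ± 39.2, Col6a1 at 571 ± 13.8 and Col3a1 at 516 ± 30.8 FPKM, with the SD ranges of Col1a1 and Col6a1 touching. Col12a1 was ninth of the 17 chains in controls and seventh in co-culture. Col14a1 was at 6.44 ± 1.24 FPKM in controls and 0.852 ± 0.117 in co-culture, the lowest level of the 17 chains there.

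Ratios of length-scaled levels within a library do not depend on scaling between libraries. The Col1a1/Col1a2 ratio was 0.513, 0.479 and 0.507 in co-culture and 0.481, 0.553 and 0.533 in controls. It lay near 0.5 in both groups, whereas the usual collagen I molecule holds a pair of alpha 1 chains and a single alpha 2 chain. The ratio is of estimated RNA levels and the molecule is protein, so these are unlike measures. Col3a1/Col1a1 averaged 0.833 ± 0.0183 in co-culture and 0.858 ± 0.0591 in controls, and those groups overlapped as well. Of 9 ratios, 6 had groups that did not overlap, each with an exact two-sided permutation p of 0.1, the smallest that 3 against 3 libraries allow, and 0.15 after Benjamini-Hochberg adjustment over the 9.

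The Col6a3/Col6a1 ratio was 0.133, 0.157 and 0.152 in co-culture and 0.215, 0.210 and 0.210 in controls, with no overlap. Col8a1/Col8a2 averaged 22.5 ± 3.45 in co-culture and 45.4 ± 7.43 in controls. Col5a1/Col1a1 averaged 0.174 ± 0.00924 against 0.204 ± 0.0126, and Col6a1/Col6a2 1.55 ± 0.0146 against 1.64 ± 0.0379. Among the enzymes, P4ha1/P4ha2 averaged 1.33 ± 0.113 in co-culture and 1.79 ± 0.111 in controls, and Plod2/Plod1 1.16 ± 0.0759 against 0.765 ± 0.0657.

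**Figure D4:**
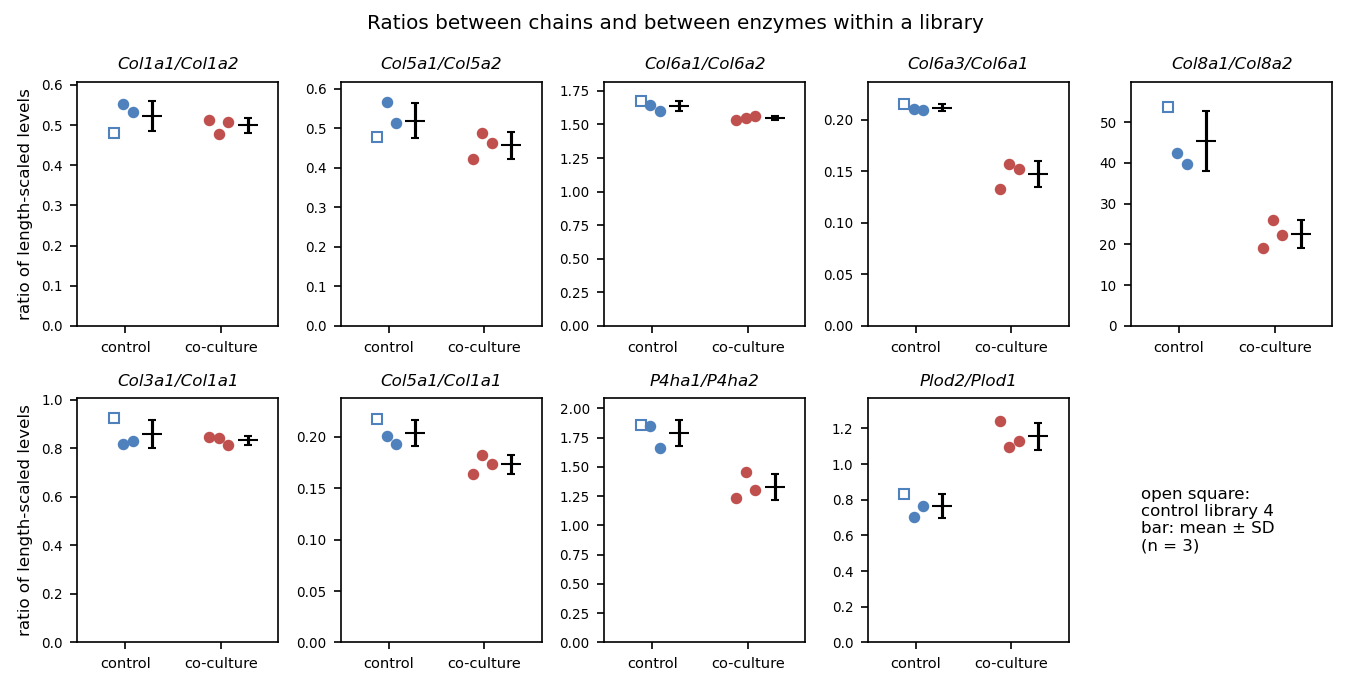
Ratio of length-scaled levels of 2 genes (y axis, from 0) in each control and co-culture library for 9 pairs; horizontal bars and whiskers are mean ± SD. Col1a1/Col1a2, Col5a1/Col5a2 and Col3a1/Col1a1 overlap between the groups, and the other 6 pairs do not.

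The transcript table gave 76 transcripts of the 34 genes that could be tested, of which 7 fell and 0 rose (19 lower and 11 higher at an unadjusted p under 0.05), where 0.942% of all transcripts fell and 0.963% rose. Without co-culture libraries 1, 2 and 3 in turn 0, 1 and 0 transcripts were called, and without control libraries 4, 5 and 6 in turn 12, 0 and 1. The 7 were both Col14a1 transcripts and 1 each of Col8a1, Loxl3, P3h1, Plod1 and Serpinh1. No change of isoform use passed among the 20 genes with 2 or more transcripts tested (0 by edgeR's diffSpliceDGE, 2 at an unadjusted p under 0.05), where 0.443% of 7671 genes passed. The P4ha2 transcript with the downstream exon printed above took 47.0%, 48.3% and 45.4% of the gene's counts in co-culture and 37.2%, 25.8% and 38.5% in controls. Its share was higher in each co-culture library, but the isoform test did not pass (diffSpliceDGE, unadjusted p = 0.218, far from the threshold after adjustment). The P4ha1 form with the downstream exon took 56.3% ± 2.3 in co-culture and 51.7% ± 0.57 in controls (SD over 3 libraries), which did not pass either. Plod2 was nearly all of the form with the extra exon, the long form of the telopeptide lysyl hydroxylase, at 94.7% ± 0.24 and 95.4% ± 0.30 of counts.

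Serpinh1 was mostly 1 transcript, at 83.2% ± 1.3 of counts in co-culture and 87.9% ± 0.12 in controls, and the transcript next in abundance took 11.5% ± 0.80 and 7.21% ± 0.58. That shift was the nearest to the threshold (unadjusted p = 0.00705, diffSpliceDGE adjusted p = 0.385) and passed only when control library 4 was left out. Estimated transcript counts divide reads among forms that overlap almost completely, so these shares carry more uncertainty than gene counts.

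**Figure D5:**
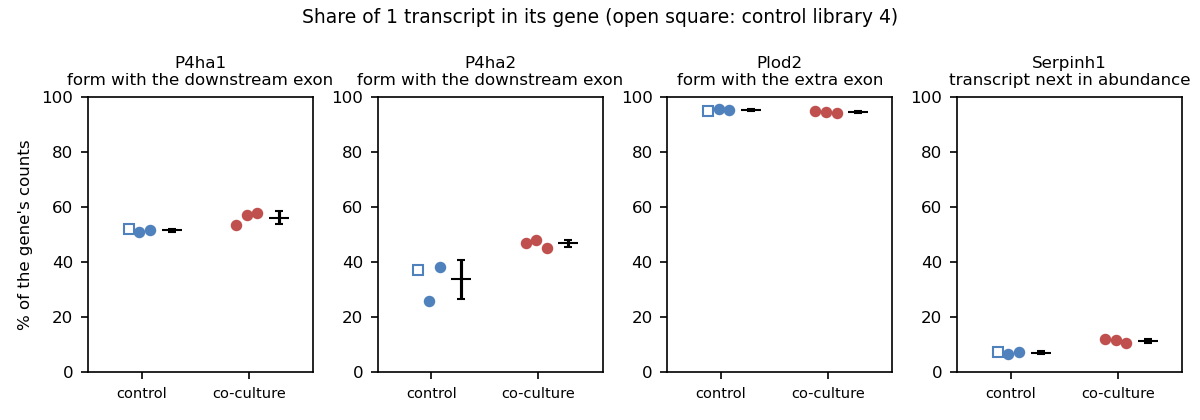
Share of a gene's counts (%, y axis, 0 to 100) taken by 1 transcript of P4ha1, P4ha2, Plod2 and Serpinh1 in each library; horizontal bars and whiskers are mean ± SD. The P4ha2 form with the downstream exon lies at 45.4% to 48.3% in co-culture and 25.8% to 38.5% in controls, and Plod2 stays near the top of the scale in all 6 libraries.

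The promoters of the genes that fell and of those that rose were compared for short motifs. RefSeq promoter windows (GRCm38.p6, 250 bases before to 50 after the start) were matched for 26 of the 34 genes. Both strands were searched for TATAAA, known as the TATA box, and for the GC box GGGCGG, to which Sp1 family factors bind. The letters CCAAT were searched as well, as were TGANTCA for AP-1 factors and GGAATG for TEAD factors. GGGCGG was found in 22 of the 26, in all 8 genes that fell and all 3 that rose, and in 11 of 15 that did not pass. The share was 61.9% of the 13105 windows of genes tested and 35.7% of all 32851 windows. The 26 genes were counted by gene, with a match in any window, and the shares by window, so these are unlike measures. CCAAT was found in 3 of the 8 and 1 of the 3, against 38.0% of windows of genes tested, so neither motif parted genes that fell from genes that rose. TATAAA was found in 4 of the 26 (15.4%, against 7.22% of windows of genes tested), GGAATG in 3 and TGANTCA in 1, that of Col6a1. Stretches of 150 bases are shown for 3 fibrillar chains that fell and for Col16a1 and P4ha3, which rose. They end before the first base of any RefSeq transcript of the gene and are written 5′ to 3′ on the gene's strand, with motif matches in capitals.
Col5a1, fell, chr2:27886231-27886380, plus strand: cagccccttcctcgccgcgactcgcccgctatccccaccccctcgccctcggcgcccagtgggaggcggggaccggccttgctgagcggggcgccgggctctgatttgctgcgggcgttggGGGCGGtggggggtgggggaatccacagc
Col5a3, fell, chr9:20815118-20815267, minus strand: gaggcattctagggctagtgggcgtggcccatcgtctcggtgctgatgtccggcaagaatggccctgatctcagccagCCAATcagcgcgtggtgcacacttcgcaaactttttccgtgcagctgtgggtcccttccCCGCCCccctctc
Col11a1, fell, chr3:114030329-114030478, plus strand: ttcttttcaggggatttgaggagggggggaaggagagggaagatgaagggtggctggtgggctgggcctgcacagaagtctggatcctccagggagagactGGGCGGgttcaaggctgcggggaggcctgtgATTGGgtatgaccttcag
Col16a1, rose, chr4:130047667-130047816, plus strand: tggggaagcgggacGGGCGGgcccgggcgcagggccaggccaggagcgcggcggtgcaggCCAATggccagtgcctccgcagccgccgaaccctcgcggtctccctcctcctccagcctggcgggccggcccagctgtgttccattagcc
P4ha3, rose, chr7:100285339-100285488, plus strand: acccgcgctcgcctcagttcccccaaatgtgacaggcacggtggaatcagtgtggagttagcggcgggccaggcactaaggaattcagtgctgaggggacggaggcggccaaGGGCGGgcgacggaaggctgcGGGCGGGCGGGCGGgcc

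Collagen pathway genes outside the 34 were read from 4 lists, to be set against the 10.3% of all genes that fell, the 10.3% that rose and the median of -0.04 over all genes. Of 10 other collagens tested, 1 rose and 4 fell. Col2a1, the main cartilage collagen, fell from 12.96 ± 1.37 to 2.08 ± 0.367 CPM, and Col23a1, a transmembrane collagen, rose from 3.55 ± 0.621 to 14.7 ± 0.821 CPM. Col25a1 fell from 1.20 ± 0.392 to 0.536 ± 0.0951 CPM and Col9a2 from 2.06 ± 0.461 to 1.03 ± 0.147. Of 21 other genes of synthesis, secretion and cross-linking, 1 rose and 5 fell. Tll1, a tolloid protease related to Bmp1, fell from 107 ± 2.30 to 20.99 ± 2.73 CPM, and Tll2 fell from 0.758 ± 0.0615 to 0.340 ± 0.084 CPM.

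Of 9 collagen receptors and uptake genes, 4 fell and 0 rose (0 higher at an unadjusted p under 0.05, and 0 by DESeq2). Itga11, a collagen-binding integrin chain, fell from 43.3 ± 4.77 to 21.9 ± 3.46 CPM. Of 8 collagen degradation genes, 4 fell and 2 rose. Mmp2 (a gelatinase) fell from 1596 ± 158 to 973 ± 24.7 CPM, the collagen-cleaving protease Ctsk from 481 ± 125 to 230.1 ± 3.73 and Fap from 222 ± 54.6 to 98.8 ± 11.8. Mmp8, the neutrophil collagenase, rose from 1.38 ± 0.24 to 6.08 ± 0.261 CPM, and Mmp9 from 1.5 ± 0.178 to 2.72 ± 0.379. The edgeR adjusted p of the 12 genes just named ran from 7.77e-05 to 0.0448, and Col25a1, Tll2, Col9a2 and Mmp9 lost their calls in 5, 5, 4 and 3 of the 6 fits that left out a library. Medians of the 4 lists were -0.13, -0.15, -0.09 and -0.64.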

How the data were processed

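RNA of 6 ASMC libraries was sequenced. HISAT did the alignment, per the labels' protocols, and the build was mm10 per the submitters' processing notes. Counting program, annotation, kit and strandedness: not given in the sources used here. The authors deposited estimated counts per gene and transcript; these are the values tested, after rounding. FPKM values deposited by the authors for co-culture libraries gave gene lengths. Control FPKM and TPM (12 columns) were left out. Control columns carry numbers that the labels lack and were assigned to their group. Nothing says whether libraries come from separate cultures, so p-values may measure technical spread.

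Genes were kept by filterByExpr, scaled by TMM factors and compared with edgeR 4.0.16 (R 4.3.3, glmQLFit and glmQLFTest, no covariate), with Benjamini-Hochberg adjustment over 12936 genes. The SE is the absolute log2 fold change over the square root of F. CPM uses TMM-scaled library sizes; ± is the SE for log2 fold changes and the SD over 3 libraries for levels, shares and ratios. Transcripts were fitted the same way, with diffSpliceDGE for isoform use. Computed and deposited FPKM differed by a median of 0.0068 on the log2 scale. Gene IDs were matched to RefSeq (GRCm38.p6; 99.7%), whose coordinates are given. Alternatives were DESeq2 1.42.0, its size factors, library totals alone, no low-count filter, leaving out each library and, added later, a loess offset on gene length. The genes and lists were chosen with earlier results of these data known. Genes with values in every library were those that passed plus Col1a1, Col1a2 and Col3a1; Ppib and the exon forms were added after their values were seen. Outside the 34, the 12 called genes with the largest changes were named, and Lox, Loxl1 and Loxl4 as relatives of Loxl2 and Loxl3.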

Additional observations from a re-analysis of the deposited data

How the results depend on the processing

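Of the 34 genes, 11 fell and 3 rose with all libraries. Leaving out 1 library at a time gave 5 to 20 that fell and 1 to 7 that rose, the highest counts without control library 4, and a median change of -0.31 to -0.18. Over all genes, 2663 calls became 1210 to 5043. Called transcripts of the 34 genes numbered 0 to 12 in place of 7, and genes with changed isoform use 0 to 1. Calls of Col14a1, Col8a1, Plod1, P3h1, Loxl3 and P4ha3 held when any library was left out, and 14 of 14 held without control library 4. Library totals without scaling factors gave 6 that fell and a median of -0.16, lost the calls of Col5a1, Col5a3, Col27a1, Loxl2 and Serpinh1, and turned P4ha1 to 0.033 and Bmp1 to 0.044. In that fit 676 of all genes fell in place of 1330. Leaving out 1 library put Bmp1 at -0.13 (without control library 4) to 0.016 (without control library 5). The gene length correction gave 7 that rose. DESeq2, its size factors and no low-count filter kept all 14 calls. A different length per gene cancels in the difference of a ratio between groups, so that alternative could not change it. The causes were not tested. No paired analysis was possible because the control columns carry numbers 4 to 6, which the labels do not use. Counts of 3 libraries a group limit what can be called: Pcolce2, with 7 to 22 reads, is the least precise.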
